A study of Caenorhabditis elegans with 6 samples.

Results

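The 4 genes described here, wve-1, unc-34, act-4 and mlc-1, encode actin, a myosin light chain and regulators of actin assembly and cell motility in Caenorhabditis elegans. Their RNA was found in read clusters after pulldown of ADR-1, a double-stranded RNA binding protein of the ADAR family. All clusters that carry 1 of these 4 gene names in the authors' list of uniquely annotated significant clusters were taken, which gave 16 of 636 clusters. unc-34 had 7 of them, mlc-1 had 4, wve-1 had 3 and act-4 had 2. The list had been chosen for CLIP over input in these same libraries, so that an excess of CLIP over input in a member describes the list and is no separate evidence of contact. Per the labels, all libraries came from whole animals of mixed stages of strain HAH59, which carries a 3xFLAG tag on ADR-1, fed with Escherichia coli OP50 at 20 °C and crosslinked by ultraviolet light at 3 J/cm2. In CLIP, lysate is treated with RNase and the protein is pulled down with the RNA that is crosslinked to it. The file captions instead speak of eCLIP in wild-type animals and do not mention the tag, and the labels were followed here. The CLIP group comprised 3 libraries from the anti-FLAG pulldown and the input group 3 libraries from 2% of the lysate set aside before it. The tag was shared by both groups and no untagged strain was among the 6 libraries, so RNA in contact with ADR-1 and RNA held by the beads cannot be told apart. The file captions call the replicates biological, without saying whether they were separate cultures. The p-values computed here over the replicates measure only the spread between these libraries. Each deposited p-value compares 1 CLIP library with its own input, and so measures counting error and not that spread.

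Actin filaments grow from actin monomers and are remodelled by proteins that start, lengthen, branch or cut them. WVE-1 is the worm member of the WAVE family, which turns on the Arp2/3 complex to start branched filaments. UNC-34 is the worm Enabled/VASP protein, which favours filament growth at the leading edge and acts in axon guidance and cell migration. ACT-4 is an actin present in muscle and other cells. MLC-1 is a muscle regulatory myosin light chain, which binds the neck of myosin heavy chains. ADR-1 does not deaminate adenosine itself and is known to alter which RNAs the active enzyme ADR-2 edits.

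The library totals behind the deposited statistics lay between 5760036 and 5778282 reads in CLIP and between 2469672 and 4250407 in input. The CLIP totals agreed within the precision of their recovery, and it could not be established that each is the sequencing depth of its library, a limit on every ratio scaled by them. The 16 clusters held 2542, 619 and 1399 reads in CLIP replicates 1, 2 and 3, or 1.97%, 2.21% and 1.76% of all reads in the 636 clusters. They held 37, 33 and 37 reads in the inputs. The lowest deposited count was 1, so that a count of 1 may stand for 0. CLIP replicate 2 had the fewest reads in clusters of the 3, 27961 against 129358 and 79557 in replicates 1 and 3.

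Of the 16 clusters, 14 lay in a 3′ UTR and 2 in an intron, the latter both in unc-34. In the whole list, 431 of 636 clusters (67.8%) lay in a 3′ UTR and 97 (15.3%) in an intron. In the authors' annotation, each of the 14 clusters lay with 100% of its length in the 3′ UTR. None of the 4 genes had a cluster in a coding exon or in a 5′ UTR, and none had a further reproducible cluster outside the uniquely annotated list. The 3′ UTR clusters of a gene followed each other closely, with a median of 57 bases from the end of a cluster to the start of the next over 10 neighbouring pairs and a range of 9 to 265 bases. Over all genes the median was 60 bases for 199 pairs. Positions are those deposited, with a counting base (0 or 1) that no source used here states. The builds named in the submitters' processing notes are ce11 and WBcel235, and gene limits were taken from RefSeq for WBcel235.

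**Figure D1:**
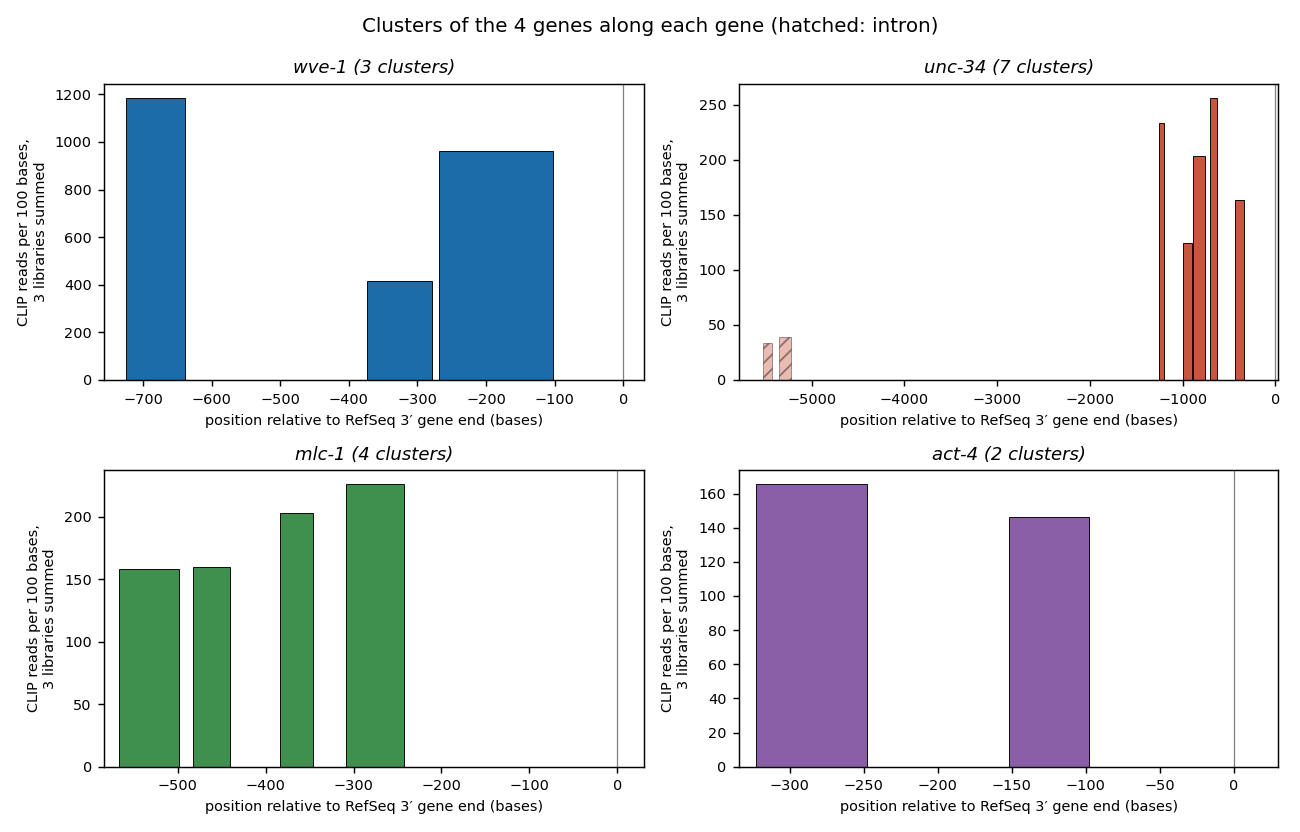
Position of each cluster relative to the 3′ end of its gene in RefSeq (x axis, bases) and its CLIP reads per 100 bases summed over 3 libraries (y axis, from 0; the axes differ between genes). The 5 unc-34 3′ UTR clusters stand together near the gene end while its 2 hatched intron clusters end 5426 and 5227 bases upstream of it.

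wve-1 (WBGene00006958, chromosome I, minus strand, 11924541 to 11929516 in RefSeq) carried the strongest clusters of the 4 genes by read number. Its 3 clusters spanned 623 bases of the 3′ UTR. The cluster nearest to the gene end (11924643 to 11924810) held 885, 225 and 497 CLIP reads in replicates 1, 2 and 3, with 6, 4 and 4 in the inputs, and ranked 15 of 636 by CLIP reads summed over the replicates. The middle cluster (11924819 to 11924915) had 213, 35 and 153 CLIP reads against 1 input read in each replicate. The cluster farthest from the gene end (11925180 to 11925266) held 579, 94 and 347 in CLIP and 5, 5 and 9 in input. In each cluster every CLIP library exceeded every input library, and CLIP replicate 2 was the lowest.

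The library-scaled log2 ratio of CLIP to input, that is the log2 ratio of read counts after division by the library totals, was 6.73, 4.59 and 6.51 for the wve-1 cluster nearest to the gene end, a mean of 5.95 ± 1.18 (SD, n = 3). It was 5.99 ± 1.82 for the middle cluster and 4.74 ± 1.69 (SD, n = 3) for the farthest. The ratio of the farthest cluster lay below that of the nearest in 3 of 3 replicates, by 1.21 ± 0.74 on the log2 scale, and below that of the middle cluster by 1.25 ± 0.64, also in 3 of 3. An exact sign-flip test on 3 replicates, two-sided, cannot give a p under 0.25, and gave 0.25 for each of these differences (0.375 after adjustment over 3 pairs). The middle and nearest clusters differed by 0.05 ± 0.65 (exact p = 1), less than the spread between replicates, with opposite signs between replicates. With a single read in each input, the middle cluster was poorly bounded: its pooled ratio of 84.0 had a wide 95% exact counting interval of 28.5 to 409. The pooled ratio of the nearest cluster was 72.1, with an interval of 42.9 to 132. The intervals cover counting error only.

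unc-34 (WBGene00006770, chromosome V, plus strand, 982706 to 996914 in RefSeq) was 1 of 4 protein-coding genes with 7 or more clusters, among 290 with any. It was also 1 of 13 genes with clusters in both a 3′ UTR and an intron. Its 5 UTR clusters formed an array over 917 bases, from 995657 to 996574, and its 2 intron clusters lay at 991389 to 991488 and at 991564 to 991687. RefSeq lists 7 transcripts of unc-34 and 2 of wve-1, and to which transcripts the reads belong was not analysed here.

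The centre of the unc-34 array (996028 to 996152) had the most CLIP reads of the gene in sum, 149, 40 and 63 in replicates 1, 2 and 3. It was also the longest unc-34 cluster, at 124 bases. The next cluster (996209 to 996285) had 122, 30 and 43, and the one nearest to the gene end (996478 to 996574) had 77, 41 and 39. CLIP replicate 1 was the highest for each of these 3 clusters. On the other side of the centre, the cluster at 995915 to 996010 had 69, 24 and 25 CLIP reads and the first of the array (995657 to 995710) had 63, 24 and 37. Input counts were 1 in every library for all of these clusters, apart from 2 reads in input replicate 1 for the first. The reads were thus shared over the whole array, with no cluster holding more than 28.3% of the unc-34 CLIP reads in any replicate.

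The library-scaled log2 ratio of the centre cluster was 6.75, 4.10 and 5.53, a mean of 5.46 ± 1.32 (SD, n = 3). It was 5.04 ± 1.39 and 4.92 ± 0.83 for the next clusters toward the gene end, and 4.40 ± 1.15 and 4.21 ± 0.75 (SD, n = 3) for those toward the start of the array. The ratio of the centre exceeded those of the first, the second and the fourth clusters of the array in 3 of 3 replicates. It exceeded the cluster nearest to the gene end in 2 of 3, by 0.54 ± 0.51 (exact sign-flip p = 0.50). Of the 21 pairs of unc-34 clusters, 17 had the same sign in all replicates, with an exact p of 0.25 each, or 0.309 adjusted over the 21. Since nearly all unc-34 input counts stand at 1, the ratios within this gene follow the CLIP reads, which are not divided by cluster length. For the same reason each pooled ratio has a wide interval, such as 17.9 to 258 around 52.8 for the centre.

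The unc-34 intron clusters were low in reads. The first had 18, 4 and 11 CLIP reads and ranked 627 of 636 by summed CLIP reads, and the second had 28, 10 and 10 and ranked 553, each against 1 read in every input. Their library-scaled log2 ratios were 2.50 ± 1.53 and 3.10 ± 1.13 (SD, n = 3), near the median of 2.72 over all 97 intron clusters. The mean ratio of the UTR clusters lay above that of the intron clusters by 1.81, 2.29 and 1.92 on the log2 scale in replicates 1, 2 and 3, or 2.01 ± 0.25 (SD, n = 3; exact sign-flip p = 0.25, the smallest possible). In CLIP RPM (reads scaled by the library total) per 100 bases of cluster, the UTR clusters together had 18.7, 6.22 and 8.07 and the intron clusters 3.59, 1.09 and 1.64. The intron clusters held 8.75%, 8.09% and 9.21% of the unc-34 CLIP reads, a share that moved little between replicates. In the authors' deposited table, p was 0.000684, 1 and 0.0178 for the first intron cluster and 4.3e-06, 0.191 and 0.0304 for the second, so neither passed 0.05 in replicate 2.

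mlc-1 (WBGene00003369, chromosome X, plus strand, 17459210 to 17460778 in RefSeq) had 4 short clusters of 38 to 69 bases, packed into 324 bases of its 3′ UTR. The last (17460469 to 17460535) had the most reads, 93, 17 and 39 in CLIP against 3, 2 and 2 in input. The first (17460211 to 17460280) had 58, 15 and 36 CLIP reads against 2, 2 and 1. The 2 between them were lower in reads, but also shorter, with 42 and 38 bases against 69 for the first and 66 for the last. The cluster at 17460295 to 17460337 had 40, 12 and 15 CLIP reads against 3, 1 and 1, and that at 17460394 to 17460432 had 49, 5 and 23 against 3, 1 and 3. CLIP replicate 2 was the lowest of the CLIP libraries for each. In CLIP RPM per 100 bases, the first mlc-1 cluster had 14.6, 3.77 and 9.03 and the second 16.5, 4.96 and 6.18. The third had 22.3, 2.28 and 10.5 and the last 24.4, 4.47 and 10.2, so the order by reads did not hold per base.

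The library-scaled log2 ratios of the mlc-1 clusters were 3.60 ± 1.67, 3.03 ± 0.59, 2.38 ± 1.23 and 3.40 ± 1.36 (SD, n = 3) from 5′ to 3′. The third lay below the fourth in 3 of 3 replicates, by 1.01 ± 0.30, and below the first by 1.21 ± 0.89 (exact sign-flip p = 0.25 for each, 0.75 adjusted over 6 pairs). The other 4 pairs had mixed signs between replicates, and for them no order within the gene could be given. In the authors' deposited table, no mlc-1 cluster had a p under 0.05 in replicate 2, where the values were 0.118, 0.126, 0.676 and 0.0788.

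act-4 (WBGene00000066, chromosome X, plus strand, 4960621 to 4964413 in RefSeq) had 2 clusters within 225 bases of its 3′ UTR. The first (4964090 to 4964165) held 60, 28 and 36 reads in CLIP and 2, 9 and 5 in input. The second (4964261 to 4964315) held 39, 15 and 25 in CLIP and 4, 1 and 4 in input. The replicates of the first differed widely, with library-scaled log2 ratios of 4.43, 0.42 and 2.40 and a mean of 2.42 ± 2.01 (SD, n = 3). Those of the second were 2.81, 2.69 and 2.20, or 2.57 ± 0.32, the smallest SD of the 16 clusters. The first cluster had its lowest ratio in replicate 2, in which its input had 9 reads, the highest count of any member in that input. The first minus the second was -0.15 ± 1.97 (SD, n = 3; exact sign-flip p = 1), less than the spread between replicates. In the authors' deposited table, p in replicate 2 was 0.565 for the first cluster and 0.0518 for the second.

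**Figure D2:**
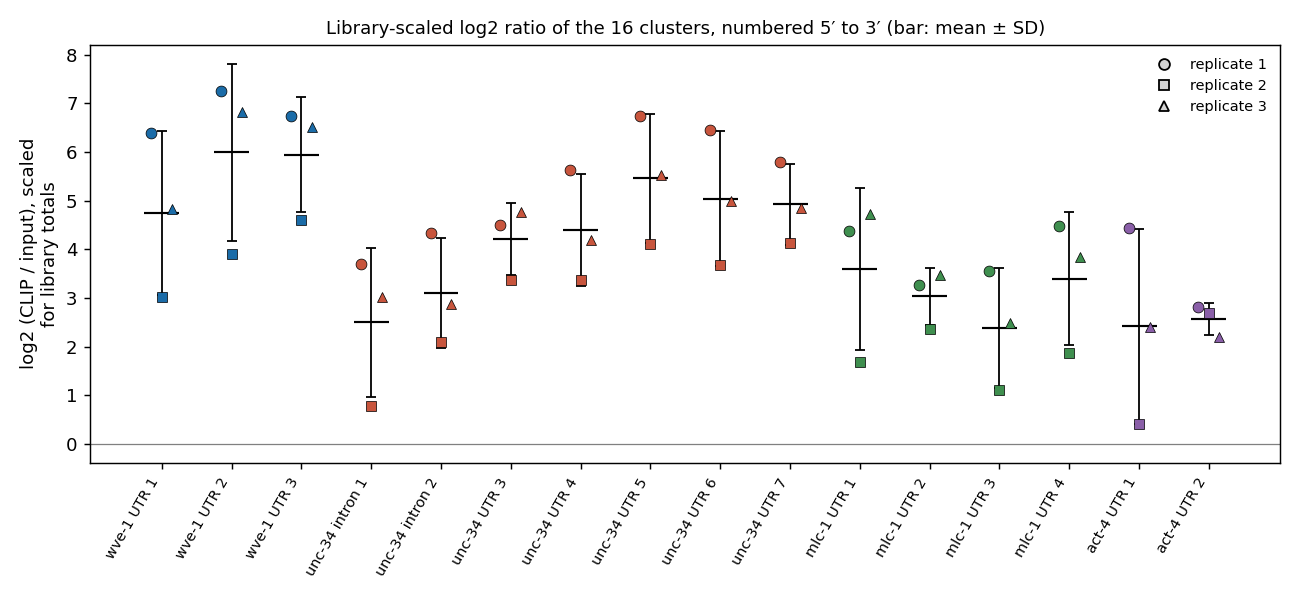
Library-scaled log2 ratio of CLIP to input (y axis) for the 16 clusters, ordered by gene and numbered from 5′ to 3′ (x axis); symbols are replicates and bars the mean ± SD over 3. Replicate 2 (squares) is the lowest in 15 of the 16 clusters, the exception being the second act-4 cluster, and every value lies above 0 at this scaling by library totals.

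Actins and muscle myosin light chains have close relatives. act-1, act-2 and act-3 encode actins nearly identical to ACT-4, and mlc-2, at X:17455792-17456586, encodes a light chain nearly identical to MLC-1. None of these 4 relatives had a cluster. Near-identical coding regions can share reads. All act-4 and mlc-1 clusters lay in 3′ UTRs, whose likeness between these genes was not tested here, and the assignment of the reads to act-4 and mlc-1 is that of the authors.

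When all clusters of a gene were summed, the ratios fell in the order wve-1, unc-34, mlc-1 and act-4 in each of the 3 replicates, with wve-1 and unc-34 changing places if input counts of 1 are read as 0. The library-scaled log2 ratio of wve-1 was 6.65, 3.92 and 5.71 in replicates 1, 2 and 3, that of unc-34 was 5.56, 3.41 and 4.58, that of mlc-1 was 3.97, 1.81 and 3.57 and that of act-4 was 3.57, 0.88 and 2.32. Between replicates each gene moved by more than the distance to its neighbour in this order, but the genes moved together. Within replicates, where the library totals cancel, wve-1 lay above act-4 by 3.17 ± 0.19 and above mlc-1 by 2.31 ± 0.32 on the log2 scale. unc-34 lay above act-4 by 2.26 ± 0.26 and above mlc-1 by 1.40 ± 0.34 (SD, n = 3), distances that became 4.71 ± 0.95 and 3.61 ± 0.50 with input counts of 1 read as 0. The smallest distances were those of wve-1 above unc-34, 0.91 ± 0.34, and of mlc-1 above act-4, 0.86 ± 0.43. Each of the 6 pairs kept its sign in 3 of 3 replicates, and each had an exact sign-flip p of 0.25, also after adjustment over the 6, which is the smallest that 3 replicates allow.

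The place of unc-34 in this order rests on how an input count of 1 is read. With input counts of 1 taken as 0 and 1 read added to both counts, an alternative chosen after seeing the data, wve-1 minus unc-34 was -0.33, -2.29 and -1.68 in replicates 1, 2 and 3, a mean of -1.44 ± 1.01 (SD, n = 3). wve-1 and unc-34 thus remained above mlc-1 and act-4 under either reading, whereas their order relative to each other was not determined. The wve-1 clusters had 36 input reads in all, those of act-4 25, of mlc-1 24 and of unc-34 22.

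In RPM per 100 bases of cluster, the CLIP level was 50.1 ± 32.8 for wve-1, 10.8 ± 7.82 for mlc-1, 9.09 ± 3.83 for act-4 and 8.04 ± 4.93 for unc-34 (SD, n = 3). wve-1 was the highest of the 4 genes in every replicate, with 83.2, 17.6 and 49.4, although its replicate 2 lay below the 19.3 of mlc-1 in replicate 1. The other 3 genes lay within each other's spread. The input level on the same scale was 1.97 ± 1.05 for act-4, 1.04 ± 0.244 for mlc-1, 0.977 ± 0.169 for wve-1 and 0.321 ± 0.0933 for unc-34 (SD, n = 3). The unc-34 value is close to that of 1 read per cluster, the lowest count in the files. act-4 had about as many CLIP reads per base as unc-34, and the lower ratio of act-4 went with its higher input level.

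**Figure D3:**
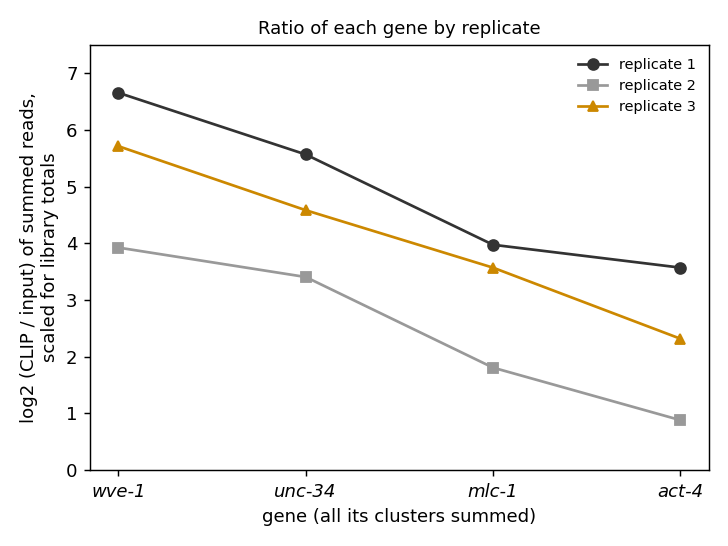
Library-scaled log2 ratio of CLIP to input of the summed clusters of each gene (y axis) for the 4 genes (x axis), with a line per replicate. The lines do not cross: replicate 1 is the highest and replicate 2 the lowest for every gene, and the order of the genes is the same in each, apart from wve-1 and unc-34 when input counts of 1 are read as 0.

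In edgeR's quasi-likelihood test over the whole list, with the recovered library totals, 13 of the 16 clusters had enough reads to be tested and all 13 were higher in CLIP at an adjusted p under 0.05, against a background of 99.0% of 389 tested clusters. Both unc-34 intron clusters and the third mlc-1 cluster did not pass the filter. The share called is that of the list, which had been selected for this difference. The edgeR log2 fold was 6.11 (SE 1.19) for the wve-1 cluster nearest to the gene end, 5.57 (SE 1.14) for the centre of the unc-34 array, 3.66 (SE 0.88) for the last mlc-1 cluster and 2.47 (SE 0.66) for the second act-4 cluster, with adjusted p of 2.36e-06, 3.62e-06, 4.97e-05 and 0.000251. With input counts of 1 read as 0, the fold of the unc-34 centre became 9.10 (edgeR adjusted p = 2.92e-05) and that of the middle wve-1 cluster went from 6.23 to 9.77, and folds fitted against inputs at 0 depend on the prior count. The first act-4 cluster was the least certain, at 2.09 (SE 0.79) and an adjusted p of 0.00829, which rose to 0.159 or 0.108 when input replicate 1 or 3 was left out and to 0.0680 when input counts of 1 were read as 0. With TMM scaling, which centres these enriched clusters near 0 (median -0.16 in place of 4.54), 7 of the 13 fell below 0, namely all those of act-4 and mlc-1 and the first 2 of the unc-34 array, and both act-4 clusters were then called lower in CLIP. Of the 13 higher calls only 1 was kept with TMM, that of the wve-1 cluster nearest to the gene end, at 1.41 and an edgeR adjusted p of 0.0390. Over the list, TMM gave 27 higher and 40 lower calls among the 389 tested clusters.

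After division by the library totals, every CLIP library exceeded every input library in each of the 16 clusters, as in 87.9% of the list. In the authors' deposited table, p was under 0.05 in all 3 replicates for 8 of the 16 clusters, against 46.1% of the list. These 8 were the 5 UTR clusters of unc-34 and the 3 of wve-1, and none of the 6 clusters of act-4 and mlc-1 was among them. All 16 passed in replicate 1 (background 99.8%) and in replicate 3 (background 99.5%), and 8 passed in replicate 2 (background 46.7%). The ratio of replicate 2 was below that of replicate 1 in 16 of 16 clusters, and in 629 of 636 of the list.

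As a set, the 16 clusters lay near the middle of the list. Their median library-scaled log2 ratio was 4.49, 2.85 and 4.46 in replicates 1, 2 and 3, against 4.91, 2.10 and 4.28 over all 636 clusters. The 14 UTR clusters had medians of 5.07, 3.19 and 4.75, against 5.36, 2.48 and 4.64 over all 431 UTR clusters. They were higher than the list in replicate 2 and lower in replicate 1. The median length of the 14 was 75.5 bases, against 85 over all UTR clusters. The 4 genes spread over most of the range instead. By mean ratio, ranks among the 636 ran from 38 to 161 for wve-1 and from 75 to 548 for unc-34. They ran from 338 to 566 for mlc-1 and were 563 and 537 for act-4. The unc-34 intron clusters ranked 548 and 431. An input count of 1 in all inputs was found for 6 of 7 unc-34 clusters and 1 of 3 wve-1 clusters, and for none of the 6 clusters of mlc-1 and act-4, against 241 of 636 in the list.

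**Figure D4:**
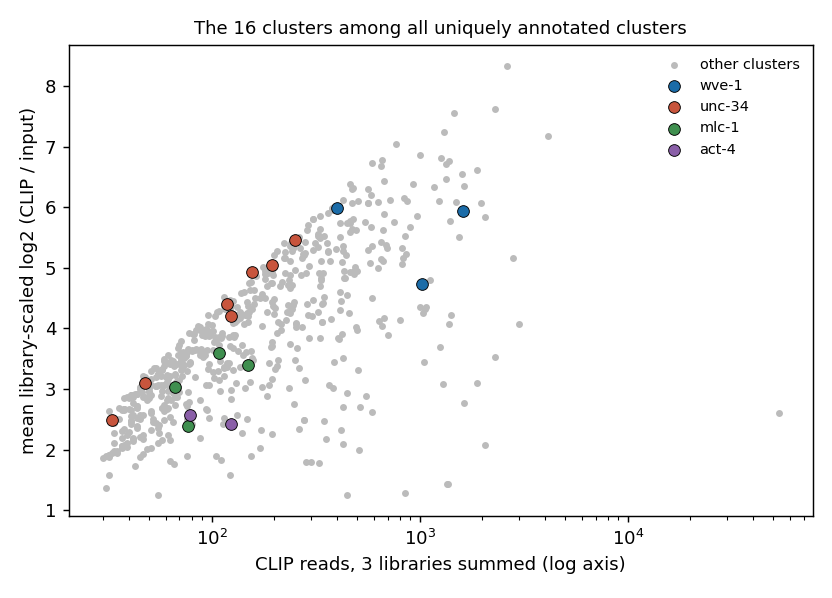
Mean library-scaled log2 ratio of CLIP to input over 3 replicates (y axis) against CLIP reads summed over 3 libraries (x axis, log scale) for all 636 clusters (grey) and the 16 of the 4 genes (coloured). The unc-34 clusters lie along the upper edge of the cloud, where input counts are 1, while act-4 and mlc-1 lie below it at similar read numbers.

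Other genes of the actin system were looked up in lists by role. Among all 19983 protein-coding genes in RefSeq, 290 (1.45%) had a uniquely annotated cluster. By role, 1 of 5 actins, 1 of 7 myosin light chains, 1 of 9 genes of the WAVE and WASP group and 1 of 8 of the Enabled/VASP group had a cluster, each being a gene described above. None was found for 16 myosin heavy chains, 7 subunits of the Arp2/3 complex, 9 formins and profilins, 14 genes of filament severing, capping and turnover or 16 crosslinkers and membrane linkers. Of 20 genes of the thin filament and body wall muscle, only act-4 and mlc-1 had clusters. The 4 genes were themselves taken from the list of clusters, so each group that holds one had a gene with a cluster by that choice. The counts of those groups are therefore not to be set against the 1.45% over all genes.

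The genes most like each member were found by the root mean square difference of log2 reads per library total, with 1 read added, over the 6 libraries, between the most-read clusters of 362 other genes and that of the member. Nearest to unc-34 were aakb-2, with 170, 42 and 74 CLIP reads and a difference of 0.12, and pph-6 at 0.20. Nearest to wve-1 were taf-7.2 at 0.31 and Y54E10BR.2 at 0.34. Nearest to mlc-1 were let-526 at 0.24 and the tRNA gene WBGene00014439 at 0.33, and nearest to act-4 were gpb-1 at 0.33 and rsks-1 at 0.50. These 8 genes were nearest in read level alone, and 7 of them had this cluster in a 3′ UTR.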

How the data were processed

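Reads were processed with fastp 0.21.0 and STAR 2.7.10b, per the submitters' processing notes, and CLIPPER gave the clusters, per the file captions. The deposited counts are raw reads in each cluster, with no normalization. For the deposited p-value of each replicate, the captions name chi-square and Fisher's exact tests. A deposited log2 column, headed as entropy, was found to be the library-scaled log2 ratio of CLIP to input, and values computed here lay within 0.000498 of it. Library totals were found on a grid that met 130 of 130, 73 of 76 and 116 of 116 deposited chi-square scores within rounding. Their recovery left a half-range of 0.0426%, 0.362% and 0.137% for CLIP replicates 1, 2 and 3.

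The test of CLIP against input used edgeR 4.0.16 in R 4.3.3 (glmQLFit, glmQLFTest, filterByExpr, Benjamini-Hochberg over all 389 clusters tested, threshold 0.05), with no replicate block and the recovered totals as library sizes; the biological coefficient of variation was 0.655. The recovery and the edgeR test were also run on simulated data, with outcomes that are not given here. The simulation for edgeR used no filter and gave most clusters no difference, unlike the list. Differences between clusters or genes were taken within replicates and tested with exact sign-flip tests in Python 3.11.15. Alternatives were TMM scaling, DESeq2 1.42.0 with the same totals or its own size factors, no filter, the replicate block, all 736 reproducible clusters, input counts of 1 taken as 0, each library left out and, for ratios, 1 read added to both counts. Per the labels' protocols, input was taken from the lysate used for pulldown, so same-numbered libraries pair; around the group means they correlated at 0.276, 0.117 and 0.00732 across clusters, which are not replicates.

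The genes, gene lists and tests were chosen with earlier results of these data known. Named were every cluster of the 4 genes, every gene with a cluster in the role lists reported, and the 2 nearest genes of each member. Of 118 listed genes, 117 matched a RefSeq symbol; the uniquely annotated clusters of 1 role list are not reported here. RNA sequences of the clusters were not analysed here.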

Additional observations from a re-analysis of the deposited data

Results flagged for a closer look

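Introns of 2 listed actin-system genes held clusters that lie in the reproducible list and outside the uniquely annotated one, and that no comparison above uses. At each of them a non-coding RNA gene is annotated on the same strand. To which of the 2 genes the reads belong was not tested. The cluster in an intron of unc-70, the beta spectrin gene (chromosome V, 6889073 to 6889145), also carried the annotation of the snoRNA K11C4.6. It held 381, 66 and 238 reads in CLIP and 65, 14 and 134 in input, a library-scaled log2 ratio of 1.16 ± 0.85 (SD, n = 3). The cluster in an intron of pix-1 (chromosome X, 13729901 to 13729980), also carried the annotation of the tRNA gene WBGene00014441. It held 32, 1 and 13 in CLIP and 2, 1 and 1 in input, a ratio of 1.85 ± 2.67 (SD, n = 3), with replicate 2 at -1.22.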

How the results depend on the processing

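The count of 13 member clusters called higher in CLIP is given per setting, with that of all clusters in brackets. DESeq2 on the same totals called 16 of 16 fitted (627 of 636). Dropping the filter gave 16 of 16 (629 of 636), and all reproducible clusters 13 of 13 (450 of 463). Reading single input reads as 0 left 12 of 13 (374 of 389). Without CLIP replicate 1, all 12 tested were called (343 of 358). Without CLIP replicate 2 it was all 14 (596 of 596), and without CLIP replicate 3 all 12 (351 of 360). Without input replicate 1 or 3, 14 of 16 were called (534 and 529 of 636). Without input replicate 2, 16 of 16 were (612 of 636). With the replicate block the count was 13 (384 of 389), and the block changed no member call. Scaling that centres the listed clusters moved it to 1 of 13 (TMM) and to 2 of the 16 fitted (DESeq2 with its own size factors), with 2 called lower in each. Not all of these 16 had an adjusted p. Over the list, TMM called 27 higher and 40 lower of 389. DESeq2 with its own size factors called 68 higher and 34 lower of 636 fitted, not all of which had an adjusted p. The TMM log2 fold was -2.36 and -2.23 for act-4, -0.99, -1.69 and -1.10 for mlc-1, and -0.41 and -0.10 for the first 2 clusters of the unc-34 array. With DESeq2's own size factors it was -1.62 and -1.52 for act-4 and -0.42 for the last mlc-1 cluster. Under that setting no result is at hand for the first 2 mlc-1 clusters or for the unc-34 array clusters other than the centre. Input counts of 1 taken as 0, with 1 read added, turned wve-1 over unc-34 to -1.44 and raised unc-34 over mlc-1 to 3.61 and over act-4 to 4.71. The 8 clusters with a deposited p under 0.05 in all replicates, against 46.1% of the list, were 6 at 0.001. The share of the list at 0.001 is not given here. Low input counts limit most ratios.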
